A study of Arabidopsis thaliana with 8 samples.

Results

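The effect of a brassinosteroid on heat-stressed Arabidopsis shoots was examined after 3 h at 43 °C, the longer of the heat exposures in the study. The comparison sets shoots of seedlings grown on 1 µM 24-epibrassinolide (EBR) against shoots of control seedlings grown on 0.01% ethanol, both collected at the end of 3 h at 43 °C. It uses 2 of the 8 deposited samples, and the members are all 22746 probe sets of the ATH1 array after 11 array control probe sets were left out. All seedlings were of the Columbia ecotype, were 21 days old, had been on EBR or ethanol throughout their growth, and gave the tissue above the medium. Per the labels, every deposited sample combines arrays of 3 biological replicates, and the tissue of no fewer than 30 seedlings was pooled in each treatment. The other 6 samples are EBR and control shoots before heat, after 1 h at 43 °C, and at 6 h of recovery at 22 °C once the 3 h of heat had ended.

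Brassinosteroids are plant steroid hormones. They are perceived at the cell surface by the receptor kinase BRI1, and a phosphorylation relay then alters the activity of transcription factors that control growth genes. EBR is a widely used member of this hormone class, and treated plants are known to survive heat and other stresses better. Heat itself induces chaperone genes through heat shock factors, while abscisic acid, salicylate and jasmonate are the main hormones of drought, infection and wounding responses.

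Both deposited kinds of measurement are given below. The deposited value table holds a linear ratio to the control of the same stage for every probe set, and its log2 of EBR over control is called the log2 ratio. The authors' 3 h table holds only probe sets selected by the authors, with a mean signal per condition and a mean log2 signal, and the EBR minus control difference of the log2 means is called the listed difference. A ratio at a single stage has no replicate value, so it carries no p-value, and the words higher and lower describe the deposited means. An approximate SD between the control arrays was inferred from the control column of the value table. Its median at 3 h was 0.107 on the log2 scale, its 90th percentile was 0.294, and it says nothing of the EBR arrays.

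Among transcripts at least 2-fold apart, far more were above control than below it in EBR shoots after 3 h of heat. By the value table, 186 probe sets (0.818% of all) were at least 2-fold higher with EBR and 35 (0.154%) were at least 2-fold lower. At 4-fold or more, 21 were higher and 2 lower, and at 8-fold or more 4 were higher and 0 lower. The median size of the log2 ratio over all probe sets was 0.147, and the median ratio itself was -0.04, so that over the whole array more probe sets lay below control than above it. The threshold has no gap around it, since 47 probe sets had folds of 1.9 to 2 and 45 had folds of 2 to 2.1. Of the 221 probe sets past 2-fold, 98 higher and 20 lower ones could be named from a single locus in the authors' tables. The other 103 are not named here, and among them 262128_at (4.03) and 249454_at (2.85) had the highest log2 ratios and 261684_at (-2.997) and 245692_at (-2.81) the lowest.

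The authors' deposited table for 3 h lists 256 probe sets, of which 198 (0.870% of the array) were higher and 58 (0.255%) lower with EBR. Per the file headers these had passed the authors' 2-way analysis of variance for treatment and a fold threshold of 2, so their selection rests on these samples. That analysis names the treatment and not the 3 h stage, so a listing is no test of the effect at 3 h. All 256 had the same sign in the value table, which rests on the same arrays. Probe sets listed higher had a median signal of 153 with EBR, against 42.5 in control, in the authors' deposited table. Those listed lower had a median of 49.6 with EBR, against 128 in control, in the authors' deposited table. Many of the higher transcripts were therefore dim in control shoots, and 104 of the 198 had a control signal under 50 in the authors' deposited table. Signals spanned 7.51 to 7450 with EBR and 5.27 to 4217 in control in the authors' deposited table.

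**Figure D1:**
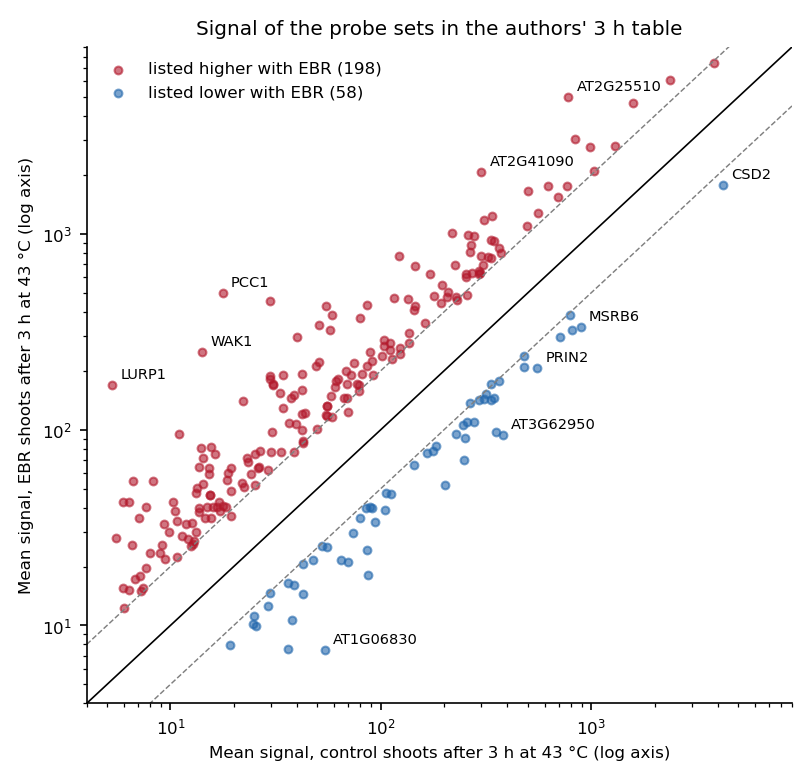
Mean signal of the 256 probe sets in the authors' deposited table for 3 h, with EBR shoots on the vertical and control shoots on the horizontal log axis. The solid line marks equal signal and the dashed lines 2-fold; 198 points lie above equality and 58 below, and WAK1, PCC1 and LURP1 combine a low control signal with a large difference.

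Some lipid transfer protein genes stood at the top of the named genes by log2 ratio. These genes encode small secreted proteins that bind lipids. By listed difference PCC1 (4.26), WAK1 (4.11) and LURP1 (3.76) lay above all of them in the authors' deposited table. LTP3 (AT5G59320) had a mean signal of 987 with EBR, against 258 in control, and a listed difference of 3.15 in the authors' deposited table. Its log2 ratio was 3.33, with an approximate control SD of 1.23. LTP4 (AT5G59310) had a signal of 763 with EBR, against 324 in control, and a listed difference of 3.48 in the authors' deposited table, with a log2 ratio of 3.20. The signals and the listed difference of LTP4 do not tell the same size, because the log2 of its mean signals' ratio was 1.23, which is -2.25 from the listed difference in the authors' deposited table. The same gap was -1.22 for LTP3, 1.25 for LURP1 and 0.03 for WAK1 in the authors' deposited table. The approximate control SD of LTP4 was only 0.27, so this SD does not reflect the gap between the measures of LTP4. LTP3 and LTP4 are neighbouring, closely related genes, and whether their probe sets share signal was not tested.

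LTP2 (AT2G38530), another gene of the family, had 770 with EBR, against 123 in control, and a listed difference of 2.79 in the authors' deposited table. Its log2 ratio was 2.65 with a control SD of 0.22. EARLI1 (AT4G12480), which encodes a hybrid proline-rich protein with a lipid transfer domain, had 342 with EBR, against 50.7 in control, and a listed difference of 2.82 in the authors' deposited table. Its log2 ratio was 2.89 at 3 h, beside 0.72 before heat, 1.54 after 1 h and 1.06 at recovery. Of 12 lipid transfer genes looked up, these 4 could be named and all 4 were at least 2-fold higher. Their median log2 ratio was 3.04, against 0.32 over all 692 named probe sets. The named probe sets had themselves been selected by the authors for an EBR effect, and 432 of them (62.4%) lay above 0, 98 (14.2%) passed 2-fold upward and 20 (2.89%) downward. The counts for each gene list below stand beside these shares and were not tested.

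Named genes of dehydration and abscisic acid responses were higher as well. AT3G02480, a late embryogenesis abundant family gene, had a signal of 169 with EBR, against 30.7 in control, in the authors' deposited table, and a log2 ratio of 3.16. LTI78 (AT5G52310), a drought- and cold-induced gene better known as RD29A, had 325 with EBR, against 57.2 in control, in the authors' deposited table. Its log2 ratio was 1.80 and its listed difference in the authors' deposited table was 2.50. AT3G02480 and LTI78 had the 2 highest log2 ratios of the 7 named genes in this group.

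COR15A (AT2G42540), whose product protects chloroplast membranes in the cold, had 978 with EBR, against 277 in control, in the authors' deposited table, and a log2 ratio of 1.58 with a control SD of 0.83. RD20 (AT2G33380), a caleosin gene of lipid droplets, had 929 with EBR, against 334 in control, in the authors' deposited table, and a log2 ratio of 1.54. In all 7 of 20 dehydration genes could be named, all 7 lay above 0, 4 were at least 2-fold higher and 0 were 2-fold lower, beside 14.2% and 2.89% of all named probe sets. COR413IM1 (AT1G29395), a cold-regulated gene of the chloroplast inner envelope outside that list, had 211 with EBR, against 49.4 in control, in the authors' deposited table, and a log2 ratio of 2.08.

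Defence genes related to salicylate and infection formed another group above control. PCC1 (AT3G22231), named for its control by pathogens and the circadian clock, had the largest listed difference of the 15 highest genes at 4.26, with signals of 499 with EBR, against 17.7 in control, in the authors' deposited table. Its log2 ratio in the value table was only 2.02. WAK1 (AT1G21250), a wall-associated receptor kinase that binds pectin, had 249 with EBR, against 14.2 in control, and a listed difference of 4.11 in the authors' deposited table. The log2 ratio of WAK1 was 2.94 with a control SD of 0.02. The median control SD was 0.15 in the dimmest 64 listed probe sets, which include WAK1, and 0.27 in the brightest 64. A small control SD at so dim a signal is therefore no sign of precision.

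LURP1 (AT2G14560), a gene required for full defence against downy mildew, had 170 with EBR, against 5.27 in control, in the authors' deposited table. That control signal is the lowest in the authors' deposited table for 3 h, so the fold of LURP1 rests on a value near the bottom of the scale. Its log2 ratio was 1.99. WRKY70 (AT3G56400), a transcription factor that favours salicylate over jasmonate defence, had 1006 with EBR, against 218 in control, in the authors' deposited table, and a log2 ratio of 1.70. OSM34 (AT4G11650), which encodes an osmotin-like protein, had 470 with EBR, against 115 in control, in the authors' deposited table, and a log2 ratio of 2.66 with a control SD of 0.70. Of 18 salicylate and defence genes 8 could be named, all 8 lay above 0, and 4 were at least 2-fold higher, beside 62.4% and 14.2% of all named probe sets.

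The 6 named members of a list of jasmonate and wounding genes were above control too. LOX2 (AT3G45140), a lipoxygenase of jasmonate synthesis, had 1749 with EBR, against 624 in control, in the authors' deposited table, and a log2 ratio of 1.41. CORI3 (AT4G23600), a coronatine-induced cystine lyase gene, had 872 with EBR, against 269 in control, in the authors' deposited table, and a log2 ratio of 1.499. Their listed differences in the authors' deposited table were 1.56 for LOX2 and 1.83 for CORI3.

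The lectin family gene AT1G52000 had 429 with EBR, against 55.1 in control, in the authors' deposited table, and a log2 ratio of 1.71. JAL23 (AT2G39330), a jacalin-related lectin gene, had 42.6 with EBR, against 6.38 in control, in the authors' deposited table, and a log2 ratio of 1.59. Of 14 jasmonate and wounding genes 6 could be named, all 6 lay above 0 and 5 were at least 2-fold higher, beside 62.4% and 14.2% of all named probe sets. The wider annotation term of the response to jasmonic acid had 4 higher and 1 lower in the authors' deposited table, a share of 80%, and its lower member was MYB16. Both named senescence genes of 10 were 2-fold higher, with log2 ratios of 1.21 for the sugar transporter gene SAG29 (AT5G13170) and 1.29 for SAG13 (AT2G29350).

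Several enzymes completed the highest named genes. PYD4 (AT3G08860), an aminotransferase gene of pyrimidine breakdown, had 298 with EBR, against 40.1 in control, in the authors' deposited table, and a log2 ratio of 2.57 with a control SD of 0.81. SRG1 (AT1G17020), a senescence-related dioxygenase family gene, had 191 with EBR, against 34.2 in control, in the authors' deposited table, and a log2 ratio of 2.39. PGDH (AT1G17745), which starts the phosphorylated pathway of serine synthesis, had 683 with EBR, against 146 in control, in the authors' deposited table, and a log2 ratio of 2.01. The approximate control SDs of SRG1 and PGDH were 0.66 and 0.39.

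KTI1 (AT1G73260), a Kunitz trypsin inhibitor gene, had 155 with EBR, against 33.1 in control, in the authors' deposited table, and a log2 ratio of 2.02. AT2G41090, a calmodulin-like gene, had 2071 with EBR, against 301 in control, in the authors' deposited table, and a log2 ratio of 2.29. AT2G25510 had 5004 with EBR, against 777 in control, in the authors' deposited table, and a log2 ratio of 2.63. The approximate control SDs of KTI1, AT2G41090 and AT2G25510 were 0.41, 0.39 and 0.33. Other genes of pyrimidine breakdown, chosen after their values were seen, had smaller differences. Listed differences in the authors' deposited table were 1.04 for the dihydropyrimidine dehydrogenase gene PYD1 (AT3G17810) and 1.46 for the cytidine deaminase gene CDA1 (AT2G19570).

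**Figure D2:**
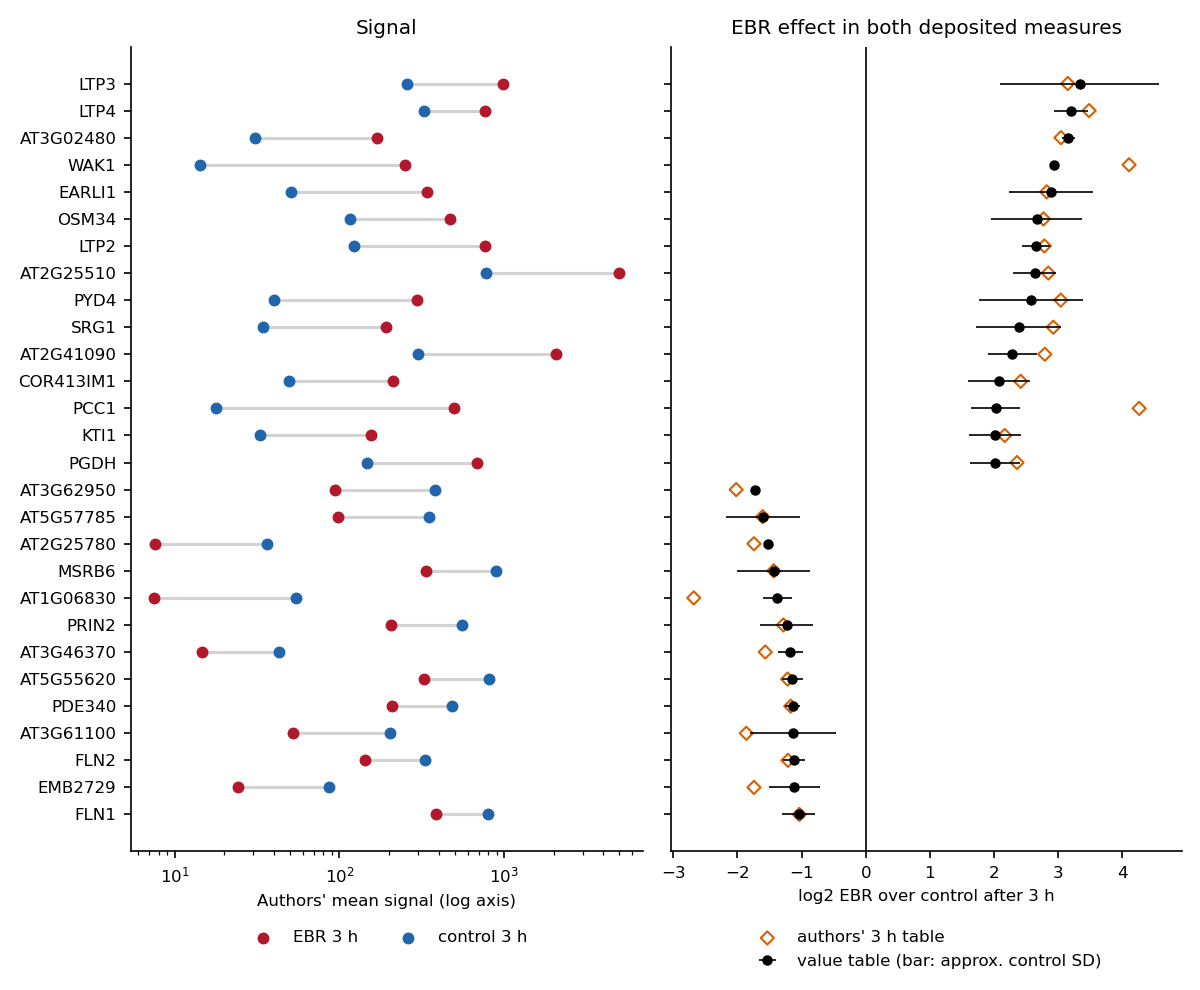
The 28 of the 30 highest and lowest named genes that are in the authors' deposited table for 3 h, with mean signals on a log axis at left (EBR and control points joined by a line) and the log2 EBR over control at right. Filled points are the value table with bars of 1 approximate control SD, and open diamonds are the authors' listed differences, which lie far outside the filled points for WAK1, PCC1 and AT1G06830.

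A glutaredoxin gene had the lowest log2 ratio of the named genes. Glutaredoxins are small redox enzymes, and the plant-specific CC-type members also act with transcription factors. AT3G62950 had a signal of 93.8 with EBR, against 379 in control, and a listed difference of -2.02 in the authors' deposited table. Its log2 ratio was -1.73, with a control SD of 0.02. AT1G06830 had 7.51 with EBR, against 54.1 in control, in the authors' deposited table, and a log2 ratio of -1.38. The EBR signal of AT1G06830 was the lowest with EBR in the authors' deposited table for 3 h. Their relatives AT4G15690 and AT4G15680 had log2 ratios of -0.90 and -0.83. All 7 named members of 15 glutaredoxin genes lay below 0, with 2 of them at least 2-fold lower, beside 37.6% and 2.89% of all named probe sets. The AT4G15 members are near-identical neighbours, and whether their probe sets share signal was not tested.

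Several genes of plastid gene expression were also lower. PRIN2 (AT1G10522), which takes part in transcription by the plastid-encoded RNA polymerase, had 206 with EBR, against 553 in control, in the authors' deposited table, and a log2 ratio of -1.23. FLN1 (AT3G54090) had 384 with EBR, against 794 in control, in the authors' deposited table, and a log2 ratio of -1.04. FLN2 (AT1G69200) had 142 with EBR, against 333 in control, in the authors' deposited table, and a log2 ratio of -1.12. FLN1 and FLN2 encode fructokinase-like proteins that associate with the same polymerase. They were not in the list of plastid expression genes and are named because they were among the 15 lowest named genes. PTAC2 (AT1G74850), a further gene of that complex, lay at -0.46, and it and PRIN2 were the 2 named members of 12 plastid expression genes looked up. Of these 2 only PRIN2 was at least 2-fold lower, beside 2.89% of all named probe sets. The median log2 ratio over all 83 named chloroplast loci was -0.24.

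Genes of redox protection lay on both sides of control. MSRB6 (AT4G04840), a methionine sulfoxide reductase gene, had 333 with EBR, against 892 in control, in the authors' deposited table, and a log2 ratio of -1.43. CSD2 (AT2G28190), the chloroplast copper and zinc superoxide dismutase gene, had 1768 with EBR, against 4217 in control, in the authors' deposited table. The log2 ratio of CSD2 was -0.99. CCS (AT1G12520), the copper chaperone of superoxide dismutase and chosen after its value was seen, had 296 with EBR, against 711 in control, in the authors' deposited table. Other antioxidant genes went the other way, with log2 ratios of 1.02 for the catalase gene CAT3 (AT1G20620) and 0.48 for the glutathione transferase gene GSTF12 (AT5G17220). Of 15 antioxidant genes 4 could be named, of which 1 was 2-fold higher and 1 was 2-fold lower.

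The remaining lowest named genes have varied or unknown roles. PDE340 (AT5G08610), named for a pigment-defective mutant, had 209.9 with EBR, against 480.5 in control, in the authors' deposited table, and a log2 ratio of -1.14. AT5G57785 had a log2 ratio of -1.60, AT2G25780 -1.53, AT1G33340 -1.32 and the kinase family gene AT3G46370 -1.17. AT5G55620 lay at -1.15, AT3G61100 at -1.13, the embryo-defective locus EMB2729 (AT3G20440) at -1.11 and the transcription factor gene WRKY17 (AT2G24570) at -1.05. AT1G33340 and WRKY17 are not in the authors' deposited table for 3 h and were named from its other tables. AT2G25780 had a signal of only 7.55 with EBR, against 36.4 in control, in the authors' deposited table.

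Few members of the lists of chaperones and of heat shock factors could be named, and none of these was 2-fold apart in the value table. The heat-induced gene GolS2, outside both lists and chosen after its value was seen, was more than 2-fold higher with EBR in the value table. Of 16 chaperone genes, 3 were named and 0 were 2-fold apart, with log2 ratios of 0.41 for Hsp70-2 (AT5G02490), 0.38 for the co-chaperone J2 (AT5G22060) and -0.44 for the mitochondrial mtHsc70-1 (AT4G37910). Of 15 heat shock factors and regulators 2 were named, HSF A4A (AT4G18880) at 0.71 and HSF4 (AT4G36990) at 0.57. HSF A4A was listed, with 169 with EBR, against 78.4 in control, and a listed difference of 1.13 in the authors' deposited table. Genes outside the authors' tables have no name here. The value table may hold the unnamed members of these lists, but their values could not be looked up.

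The 3 named of 16 brassinosteroid genes lay within 2-fold of control in the value table. The brassinosteroid-inactivating enzyme gene BAS1 (AT2G26710) lay at 0.17, the RING finger gene BRH1 (AT3G61460) at 0.17 and the early response factor gene BEE2 (AT4G36540) at -0.71. BEE2 was listed as lower, with 238 with EBR, against 479 in control, and a listed difference of -1.07 in the authors' deposited table. EXPA1 (AT1G69530), an expansin gene of wall loosening, lay at -1.02 with signals of 152 with EBR, against 315 in control, in the authors' deposited table. Of 12 cell wall and growth genes looked up 3 were named, and of these only EXPA1 was 2-fold apart in the value table. The annotation term of the cell wall leaned the other way, with 6 higher and 1 lower in the authors' deposited table, EXPA1 being the lower one.

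Markers of particular shoot cell types were mostly not named. No marker of mesophyll (of 12), root (of 9) or guard cells (of 6) was in the authors' tables under a single locus. The floral organ gene PI (AT5G20240), 1 of 10 floral markers, had 33.9 with EBR, against 93.7 in control, in the authors' deposited table, and a log2 ratio of -0.67. Of 8 epidermis markers the transcription factor gene MYB16 (AT5G15310) had a log2 ratio of -0.95 and the wax gene CER3 (AT5G57800) -0.20. MYB16 had 18.1 with EBR, against 87.0 in control, and a listed difference of -2.13 in the authors' deposited table. Their part in the other differences was not tested, and in these whole shoots fewer cells of a type and less RNA per cell cannot be told apart. As a measure of RNA integrity, the log2 of 3' minus 5' signal for the array's actin and GAPDH controls differed at 3 h, EBR minus control, by 0.06, -0.30, -0.29 and 0.04, with no common direction.

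Annotation terms in the authors' deposited table were described by direction among its 238 probe sets with 1 locus, of which 183 (76.9%) were higher. Lipid transport had 6 listed loci and all were higher, with a median listed difference of 2.80 in the authors' deposited table. Their median log2 ratio was 2.77, but over all 10 named loci of the term it was 0.87. The response to abscisic acid had 9 of 9 higher, with a median of 1.83 in the authors' deposited table. It includes the annexin gene ANNAT1 (AT1G35720), a calcium-dependent membrane-binding protein, with 2771 with EBR, against 989 in control, in the authors' deposited table. The cell wall extensin gene EXT4 (AT1G76930) of the same term had 599 with EBR, against 254 in control, in the authors' deposited table.

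Terms of infection and wounding leaned the same way. Defence response to fungus had 7 of 7 higher, wounding 5 of 5 and cold 7 of 7 in the authors' deposited table. Of the fungus term, the chitin-binding pathogenesis gene PR4 (AT3G04720) had 39.8 with EBR, against 13.6 in control, in the authors' deposited table. Defence response had 10 higher and 1 lower in the authors' deposited table. Among these, the cell wall protein gene ECS1 (AT1G31580) had 6070 with EBR, against 2356 in control, in the authors' deposited table. The trypsin inhibitor gene TI1 (AT2G43510) had 430 with EBR, against 145 in control, and the immune receptor gene RPS2 (AT4G26090) had 74.97 with EBR, against 16.3 in control, in the authors' deposited table. These shares were not tested and stand beside the 76.9% of all listed loci that were higher.

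Terms of kinases and of organelles held loci on both sides. Protein phosphorylation had 9 higher and 2 lower (81.8% higher) and kinase activity 10 higher and 4 lower (71.4%) in the authors' deposited table, near the 76.9% of all listed loci. Among the phosphorylation loci was the immune co-receptor gene SOBIR1 (AT2G31880), which had 506 with EBR, against 208 in control, in the authors' deposited table. The cysteine-rich receptor kinase gene CRK10 (AT4G23180) of that term had 772 with EBR, against 300.3 in control, in the authors' deposited table. Calcium binding had 6 of 6 higher in the authors' deposited table. Chloroplast had 13 higher and 9 lower and nucleus 11 higher and 10 lower in the authors' deposited table. The median log2 ratio of the 22 listed chloroplast loci was 0.59, but over all 83 named chloroplast loci it was -0.24. CS26 (AT3G03630), a chloroplast cysteine synthase family gene, was among the lower ones with 146 with EBR, against 345 in control, in the authors' deposited table. OTP81 (AT2G29760), a pentatricopeptide repeat gene of chloroplast RNA editing, had 9.91 with EBR, against 25.5 in control, in the authors' deposited table.

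**Figure D3:**
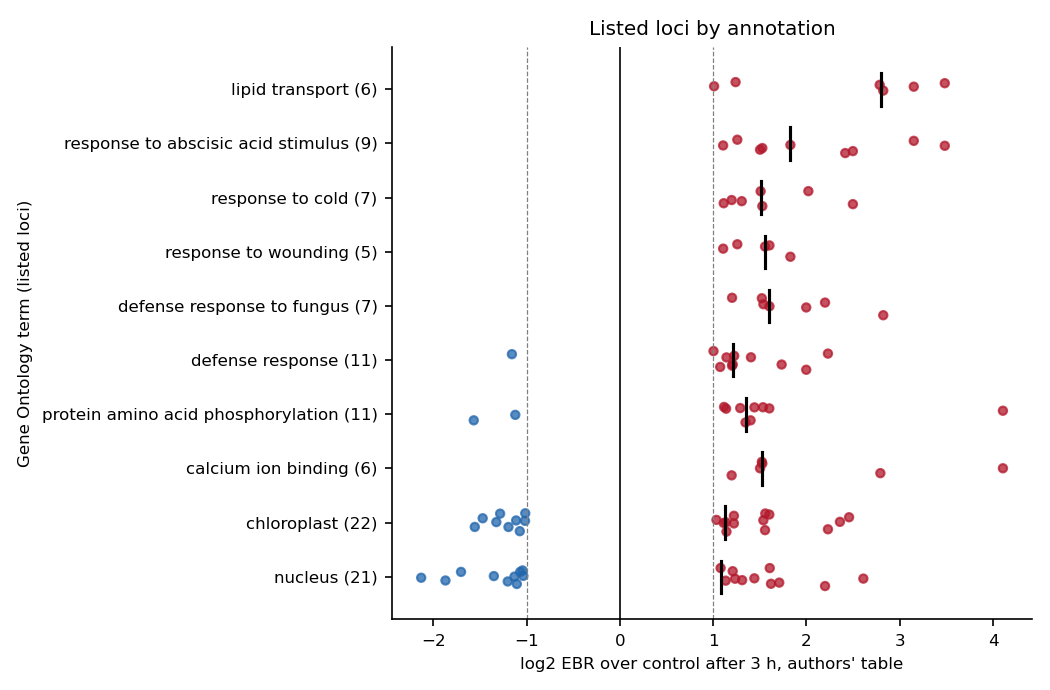
Listed differences (log2 EBR over control after 3 h, authors' deposited table) of the loci under 10 Gene Ontology terms, with 1 point per locus, a black bar at the median and the number of listed loci in brackets. All loci of lipid transport, abscisic acid, cold, wounding, fungus and calcium terms lie above 0, while chloroplast and nucleus hold loci on both sides.

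The size of the effect depended on which deposited measurement was read. The median listed difference was 1.48 for probe sets listed higher in the authors' deposited table, and their median log2 ratio was 1.03. For those listed lower it was -1.20 in the authors' deposited table, against a median log2 ratio of -0.83. Of the 256 listed probe sets 123 (48.0%) were also at least 2-fold apart in the value table, 105 higher and 18 lower, and these are 55.7% of the 221 found there. Split into 4 groups of 64 by the lower of the 2 mean signals, 29, 25, 25 and 44 were 2-fold apart in the value table from the dimmest to the brightest group. In the dimmest group the lower signal was 5.27 to 15.996 and the median sizes were 1.52 listed in the authors' deposited table and 0.91 in the value table. In the brightest group the medians were 1.29 listed in the authors' deposited table and 1.14 in the value table.

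**Figure D4:**
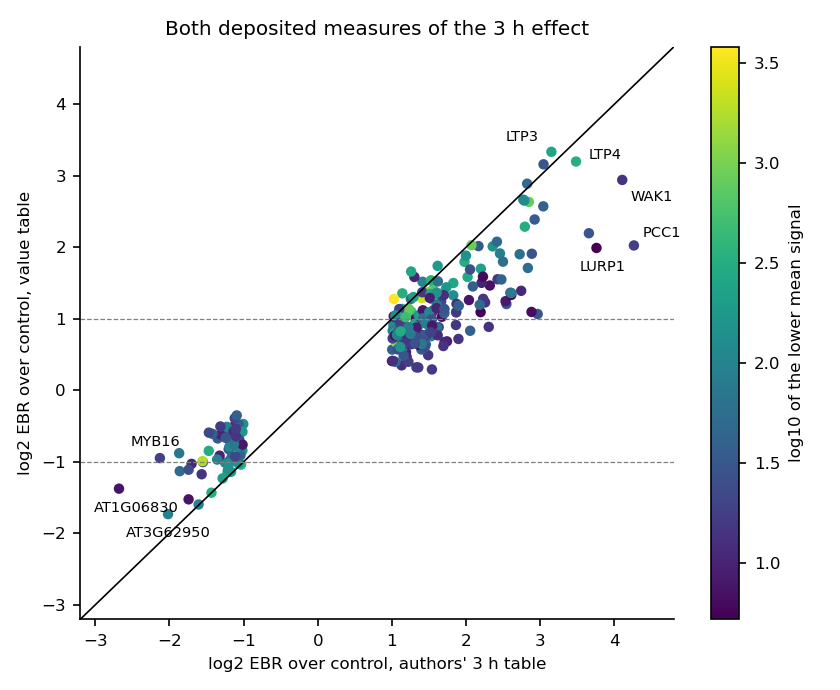
Listed difference in the authors' deposited table (horizontal) against the log2 ratio of the value table (vertical) for the 256 listed probe sets, coloured by the log10 of the lower mean signal. The solid line marks equality and the dashed lines 2-fold in the value table; PCC1, LURP1 and AT1G06830, with low signals, have ratios far closer to 0 in the value table.

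Whether the EBR effect at 3 h differed from that at the other stages was tested with limma on the 4 stage ratios. The error comes from the spread among the other 3 stages, since 3 h has a single ratio. For each probe set limma draws this spread toward a value common to all probe sets. No probe set was called (0.00% of 22746, limma, smallest adjusted p = 0.989), and 903 (3.97%) had an unadjusted p below 0.05. With recovery left out 1 probe set was called as lower at 3 h, 245692_at, with a difference of -1.94 from the other heat and pre-heat stages (limma adjusted p = 0.0205). Its log2 ratios were -0.85 before heat, -0.89 after 1 h, -2.81 after 3 h and -2.21 at recovery. With recovery left out, the spread of a probe set comes only from its ratios before heat and after 1 h, before limma draws it toward the common value. For this probe set those ratios lay close together. The test does not show that the effect was equal at all stages.

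Among named genes EARLI1 had the largest positive difference of 3 h from the mean of the other stages, at 1.78 (limma adjusted p = 0.989). OSM34 differed by 1.25, with log2 ratios of 1.37 before heat, 2.57 after 1 h, 2.66 after 3 h and 0.30 at recovery. AT3G02480 differed by 1.16, AT5G53680 by 0.91 and LTI78 by 0.90, and none was called. The largest negative differences were those of the expansin-like gene EXLB1 (AT4G17030) at -1.03, the lipid transfer family gene AT2G37870 at -0.94 and NF-YA3 (AT1G72830) at -0.91. AT2G34810 and NF-YA2 (AT3G05690) followed with -0.88 and -0.68, and none was called. NF-YA2 and NF-YA3 encode subunits of the CCAAT-binding factor NF-Y. EXLB1 had log2 ratios of 1.69 before heat, 0.57 after 1 h, 0.25 after 3 h and 1.58 at recovery.

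**Figure D5:**
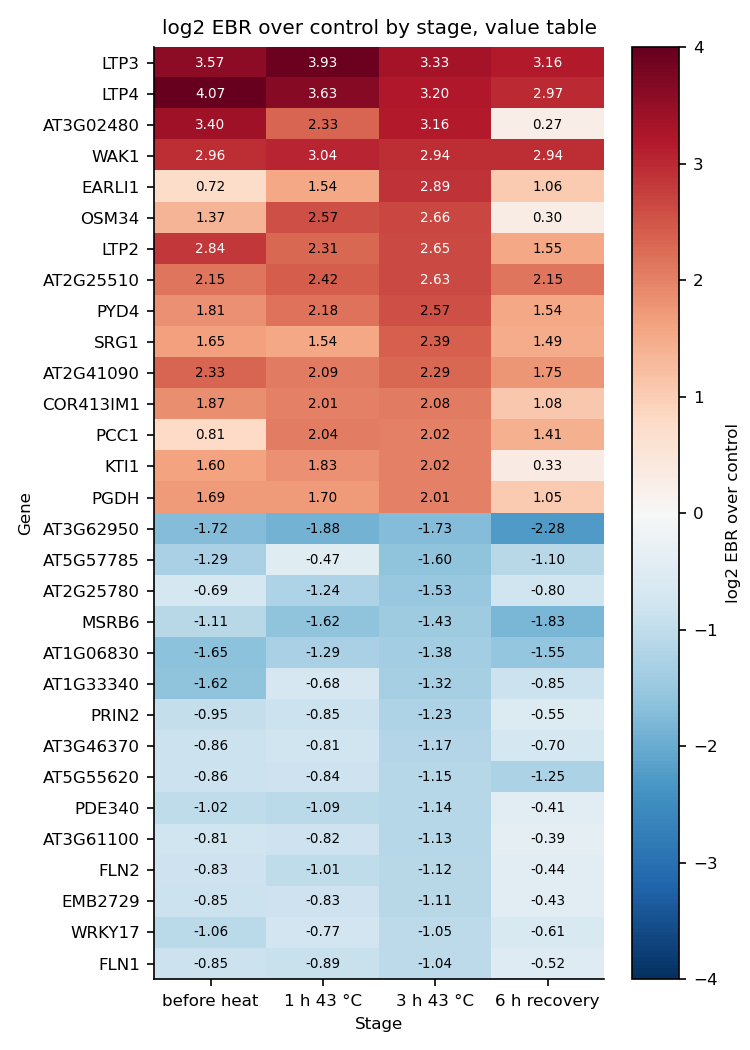
Log2 EBR over control in the value table at each of the 4 stages for the 15 highest and 15 lowest named genes at 3 h, with the value printed in each cell and red for higher and blue for lower with EBR. EARLI1 has 2.89 at 3 h and at most 1.54 elsewhere, while WAK1 lies between 2.94 and 3.04 throughout.

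Most probe sets that were 2-fold apart at 3 h had the same sign at the other stages. Of the 186 higher ones, 179 lay above 0 before heat, 184 after 1 h and 170 at recovery, where 42.0%, 48.4% and 42.5% of all probe sets lay above 0. Their median log2 ratio was 1.06 before heat, 1.11 after 1 h, 1.30 at 3 h and 0.62 at recovery. At least 2-fold higher at those stages were 99, 109 and 38 of them in the same order, leaving out 3 h. The share of all probe sets past 2-fold at those stages is not given here. Of the 35 lower ones, 35 lay below 0 before heat, 34 after 1 h and 35 at recovery. At these stages 58.0%, 51.6% and 57.5% of all probe sets lay below 0. The medians of the lower ones were -0.86 before heat, -0.83 after 1 h, -1.15 at 3 h and -0.85 at recovery. The medians at 3 h are larger in size by the way these probe sets were chosen.

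The authors' tables for unstressed shoots and for 1 h compare other samples than the one for 3 h, but all 3 were selected by the same kind of analysis of the treatment. Of the 256 listed probe sets 167 were in the authors' deposited table for unstressed shoots, which is 65.2% of the 3 h list and 61.2% of the 273 unstressed ones. In the authors' deposited table for 1 h, 181 of them appeared, which is 70.7% of the 3 h list and 75.7% of the 239 at 1 h. There were 50, of which 35 were higher and 15 lower, in the authors' deposited table for 3 h and in neither other table. Recovery was not part of this comparison. A gene among these 50 is not shown to respond at 3 h alone, because the lists turn on a threshold and leave out recovery. AT5G53680, the kinase family gene AT1G53440 and the transcription factor gene NAC069 (AT4G01550), chosen after their values were seen, had listed differences of 2.26, 1.53 and 1.71 in the authors' deposited table. The shoot meristem homeobox gene STM (AT1G62360), also chosen so, had 76.6 with EBR, against 33.6 in control, in the authors' deposited table, and log2 ratios of 0.29 before heat, 0.36 after 1 h, 0.84 after 3 h and 0.33 at recovery.

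Listed differences from the unstressed control were available in a further authors' table for the 3 h shoots of both arms, which share that unstressed control. LTP3 lay 0.25 from unstressed control in EBR shoots at 3 h and -2.90 in control shoots at 3 h, per the authors' deposited table. EARLI1 lay at 1.39 with EBR and -1.44 in control, and OSM34 at 2.00 with EBR and -0.77 in control, per the authors' deposited table. Unstressed EBR shoots already lay above unstressed control, by 3.21 for LTP3, 1.30 for EARLI1 and 1.88 for OSM34, per the authors' deposited table. Set against those unstressed EBR shoots, heated EBR shoots lay at -2.95 for LTP3, 0.09 for EARLI1 and 0.12 for OSM34, per the authors' deposited table. LTP3 was therefore below its own unstressed level by like amounts in both arms, and EARLI1 and OSM34 were near theirs with EBR and below it in control.

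Some genes lay far from the unstressed control in both arms or in EBR shoots. GolS2 (AT1G56600), a galactinol synthase gene known to be heat-induced and chosen after its value was seen, lay at 7.17 with EBR and 5.90 in control, per the authors' deposited table. EXPA1 lay at -4.79 with EBR and -3.73 in control, per the authors' deposited table. WAK1 lay at 4.52 with EBR and 0.42 in control, and PCC1 at 4.83 with EBR and 0.57 in control, per the authors' deposited table. The high EBR values of WAK1 and PCC1 stood beside 4.51 and 2.76 for unstressed EBR shoots in the authors' deposited table.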

How the data were processed

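Shoot RNA, labelled with biotin, was hybridised to ATH1 arrays according to the labels. MAS5 and GCRMA appear in the submitters' processing notes with neither version nor role. A genome build and the way arrays were combined are not given in the sources used here, and no coordinates are printed. The deposited value table holds a linear ratio per probe set, read as relative to the control of the same stage because no control value exceeds 1, and the approximate control SD takes a control value as a geometric over an arithmetic mean of 3 arrays. Both readings are inferences, and the SD of LTP4 does not reflect the gap between its signals and its listed difference. The authors' deposited tables hold fold, mean signal intensity and log2 values, made by the authors over arrays, with no error.

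From these, log2 ratios (EBR value over control value) and counts past 2-fold were computed with Python 3.11.15, pandas 2.3.3 and numpy 2.4.6. One limma contrast (3.58.1, R 4.3.3, with lmFit, eBayes and Benjamini-Hochberg at 0.05) set 3 h against the other stages. A run on simulated data checked only that mean estimates met the changes put in, and set no condition on calls. The p-values of the contrast measure spread between stages, which may share plant batches. The number of arrays limits the precision.

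Names come from probe sets with exactly 1 locus in the authors' tables (692 of 733, all matched to the TAIR10.1 table). Named genes are the 15 highest and 15 lowest at least 2-fold apart, up to 4 members of each of 17 lists and of each term with at least 5 listed loci, and the 5 largest differences of 3 h each way. The members, lists and alternatives were chosen with earlier results of these data known. Alternatives were other fold thresholds, centring, quantile normalization, the EBR column alone, a control spread limit, a signal minimum and leaving out recovery.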

Additional observations from a re-analysis of the deposited data

Results flagged for a closer look

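AT5G53680 had a log2 EBR over control of 1.23 after 3 h at 43 °C and of -0.35 before heat, so the direction differed between these stages. Each stage is 1 deposited sample per arm, and the difference between these 2 stages was not tested by itself. The limma test of 3 h against the mean of the other stages gave an adjusted p of 0.989. Its mean signals at 3 h were 64.1 with EBR and 13.6 in control in the authors' deposited table.

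Of the 96 named genes carried through the processing alternatives, 6 more had log2 ratios of opposite sign at 3 h and at recovery. Only ratios of at least 0.1 in size were counted, which left out LTI78 at 1.80 and -0.006. These differences were not tested by themselves, and the share of all probe sets that change sign is not given here. At 3 h and at recovery the ratios were 0.41 and -0.18 for Hsp70-2, 0.38 and -0.35 for J2, 0.57 and -0.41 for HSF4, and -0.44 and 0.53 for mtHsc70-1. They were 1.08 and -0.19 for NAC069 and 0.53 and -0.48 for JR1 (AT3G16470), a jasmonate-responsive lectin gene.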

How the results depend on the processing

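The counts of 186 higher and 35 lower probe sets moved with the fold threshold, to 678 and 274 at 1.5-fold and to 48 and 5 at 3-fold. Median centring gave 202 and 26, quantile normalization 164 and 40, the EBR column alone 161 and 42, and a limit of 3 standard errors from the control column 133 and 28. The limma contrast called 1 probe set with recovery left out and 0 under centring or quantile normalization (916 and 886 at an unadjusted p below 0.05). Of probe sets in the authors' deposited table, 150 higher and 45 lower had a signal of at least 50 in the higher condition. Requiring 2-fold in the value table as well, a choice made after seeing the data, left 105 and 18. Over 96 named genes, centring and quantile normalization turned the sign of 0, as did the authors' deposited table for the 68 it lists. With its values in place of the value table, 41 of these 68 moved by more than the control SD, as did 14 of 96 under centring and 12 of 96 under quantile normalization. No paired analysis was possible because each group has 1 deposited sample, and for the same reason no replicate could be left out. No background level is given for signals, so folds against control signals of a few units are uncertain.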
